A study of Mus musculus with 16 samples.

Results

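The regions described here are peaks of H3K27me3 that splenic B cells of both genotypes shared in the solvent DMSO and that stayed in the peak list of wild-type (WT) cells, but not of mutant cells, under the EZH2 inhibitor GSK343. Members were selected on peak presence alone, and were the peaks of the WT DMSO list on chromosomes 1 to 19 that were narrower than 10000 bp, were overlapped by at least 1 bp by a peak of the mutant DMSO list and of the WT GSK343 list, and were overlapped by no peak of the mutant GSK343 list. There were 2276 such peaks among the 39495 peaks of the WT DMSO list, and they are called WT-only peaks below. The reverse class, overlapped in mutant GSK343 but not in WT GSK343, held 1084 peaks and is called mutant-only.

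The donors of the cells were C57BL/6 mice, 6 to 8 weeks old, whose splenic B cells were purified with CD43 microbeads. They were WT or carried the Ifih1/Rigi/cGAS triple mutant genotype, which affects cytosolic sensors of RNA and DNA. Cells of both genotypes were held for 48 hours in medium with BAFF and IL-4, a survival factor and a cytokine of B cells, together with DMSO or 1 µM GSK343. For every combination of genotype and treatment there were 2 ChIP samples and 2 inputs, and 1 list of broad peaks. The names of the peaks carry a folder name for pooled duplicates, and those of the mutant lists carry a prefix ending in 1, so it is not certain that both mutant replicates entered. The labels do not say which alleles make up the triple mutant genotype, or whether replicates came from separate mice. With 1 list per group no difference between lists could be tested against a spread between replicates, and the read depth behind the lists is unknown. The statements below describe these 4 lists.

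H3K27me3 is written by the Polycomb repressive complex that has EZH2 as its catalytic subunit, and it marks genes held silent in a given cell type. In mammals it forms broad domains over silent developmental genes and smaller patches elsewhere, and CG-rich start sites of silent genes are typical places where the complex is recruited. A catalytic inhibitor such as GSK343 stops new deposition, while the existing mark is diluted by cell division and removed by demethylases. As a check on the cell type, of 18 genes of B cell identity and signalling with a start site in the table used, 2 had a WT DMSO peak within 1 kb of it. The mark lay that near to 17 of 23 genes of the myeloid, erythroid and stem cell list and to 99 of 108 homeobox and paired-box genes, as well as to 7 of 20 T and innate lymphoid genes and 3 of 12 plasma cell and germinal centre genes. Of all genes with a start site in the table, 25.4% had a WT DMSO peak that near.

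The sequences below are promoter windows, 250 bases before to 50 after a start site (RefSeq, GRCm38.p6), at 6 WT-only peaks and 1 mutant-only peak that the text returns to. They were picked to show the range from CG-rich to CG-poor start sites in these classes, after their values were seen. Letters are written 5′ to 3′ on the strand of the gene, and capitals mark each CG dinucleotide. The windows are at chr9:49340153-49340452 (+ strand) for Drd2, chr12:38779832-38780131 (+) for Etv1, chr15:89180739-89181038 (-) for Plxnb2, chr12:8771146-8771445 (+) for Sdc1, chr9:45009562-45009861 (-) for Cd3e, chr4:88849837-88850136 (+) for Ifna1 and chr14:33923337-33923636 (+) for Gdf10, the mutant-only case.
Drd2: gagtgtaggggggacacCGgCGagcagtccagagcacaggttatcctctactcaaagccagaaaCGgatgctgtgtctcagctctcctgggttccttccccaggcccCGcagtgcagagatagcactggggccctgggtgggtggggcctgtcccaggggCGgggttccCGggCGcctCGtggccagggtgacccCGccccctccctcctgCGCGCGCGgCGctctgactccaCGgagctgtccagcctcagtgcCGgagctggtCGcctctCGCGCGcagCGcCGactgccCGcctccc
Etv1: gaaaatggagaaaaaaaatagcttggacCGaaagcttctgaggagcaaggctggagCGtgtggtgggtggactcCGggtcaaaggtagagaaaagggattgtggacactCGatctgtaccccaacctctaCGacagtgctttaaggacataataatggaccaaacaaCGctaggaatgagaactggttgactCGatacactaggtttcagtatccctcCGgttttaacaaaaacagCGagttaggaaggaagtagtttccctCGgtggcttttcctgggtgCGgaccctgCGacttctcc
Plxnb2: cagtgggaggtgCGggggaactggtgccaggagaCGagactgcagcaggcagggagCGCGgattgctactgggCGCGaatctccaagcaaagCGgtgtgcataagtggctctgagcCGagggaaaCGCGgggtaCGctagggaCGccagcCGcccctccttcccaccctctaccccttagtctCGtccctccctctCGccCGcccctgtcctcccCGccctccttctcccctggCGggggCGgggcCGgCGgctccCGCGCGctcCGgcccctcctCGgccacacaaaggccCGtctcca
Sdc1: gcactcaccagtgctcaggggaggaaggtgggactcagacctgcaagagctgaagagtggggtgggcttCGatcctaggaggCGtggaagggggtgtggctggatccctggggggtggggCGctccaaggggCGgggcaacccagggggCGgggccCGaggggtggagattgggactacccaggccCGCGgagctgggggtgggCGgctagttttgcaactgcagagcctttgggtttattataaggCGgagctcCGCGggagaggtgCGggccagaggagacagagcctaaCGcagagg
Cd3e: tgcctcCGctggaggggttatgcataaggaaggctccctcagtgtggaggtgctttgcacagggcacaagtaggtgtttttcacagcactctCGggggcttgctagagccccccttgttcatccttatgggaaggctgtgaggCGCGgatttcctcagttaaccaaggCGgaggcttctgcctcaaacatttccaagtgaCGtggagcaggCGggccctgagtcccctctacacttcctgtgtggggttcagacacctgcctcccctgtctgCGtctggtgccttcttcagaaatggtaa
Ifna1: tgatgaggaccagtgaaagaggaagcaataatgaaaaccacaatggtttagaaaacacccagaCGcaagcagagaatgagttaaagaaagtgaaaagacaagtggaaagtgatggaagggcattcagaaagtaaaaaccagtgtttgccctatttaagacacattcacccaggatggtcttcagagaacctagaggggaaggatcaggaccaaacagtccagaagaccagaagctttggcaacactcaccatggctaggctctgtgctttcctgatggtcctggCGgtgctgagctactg
Gdf10: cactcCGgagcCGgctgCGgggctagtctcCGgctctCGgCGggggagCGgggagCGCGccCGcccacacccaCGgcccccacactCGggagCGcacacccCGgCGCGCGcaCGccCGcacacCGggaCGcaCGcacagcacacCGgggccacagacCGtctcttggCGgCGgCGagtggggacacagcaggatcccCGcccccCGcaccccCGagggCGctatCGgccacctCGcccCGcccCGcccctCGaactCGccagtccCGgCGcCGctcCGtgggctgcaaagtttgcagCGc
The number of CG dinucleotides in the 300 bases was 23 at Drd2, 12 at Etv1, 27 at Plxnb2, 14 at Sdc1, 8 at Cd3e and 2 at Ifna1. It was 42 at Gdf10.

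Of the 37984 WT DMSO peaks on these chromosomes under 10000 bp, 29942, or 78.8%, were overlapped in mutant DMSO and are called shared peaks. Of the shared peaks, 6431 (21.5%) were overlapped in WT GSK343 and 5239 (17.5%) in mutant GSK343. The WT-only peaks made up 7.6% of the shared peaks and the mutant-only peaks 3.62%, a ratio of 2.10. The peaks kept in both genotypes numbered 4155 (13.9%) and those overlapped in neither GSK343 list 22427 (74.9%). The rule itself fixes these counts, and the lists they rest on differ in length, with 11854 autosomal peaks in WT GSK343 and 10705 in mutant GSK343. When both GSK343 lists were shortened to the same length by p-value, the classes held 1896 and 1189 peaks, a ratio of 1.59. With a q-value of at most 0.01 in both GSK343 lists they held 997 and 691 peaks, a ratio of 1.44. Because weaker mutant GSK343 peaks no longer counted there, only 348 of the 997 had no peak in the full mutant GSK343 list. Likewise, 181 of the 691 had no peak in the full WT GSK343 list. WT-only peaks thus outnumbered mutant-only peaks under these settings, by a margin that moved with the threshold.

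At the width limit, the widest members were a peak of 9837 bp at chr11:102350027-102359863 over Slc4a1, which encodes the anion exchanger of red cells, a peak of 9772 bp outside protein-coding genes at chr9:48438478-48448249, and peaks of 9758 bp over Cfap77 (chr2:29035454-29045211) and 9700 bp over 4932438H23Rik (chr16:91048830-91058529). Their WT DMSO folds over background were 2.70, 3.07, 2.93 and 2.79. Just outside the limit were a peak of 10021 bp over Dpysl5 (chr5:30731251-30741271, fold 2.73) and one of 10062 bp outside protein-coding genes (chr19:60604002-60614063, fold 2.58). In all, 38 peaks of 10000 bp or more met the other conditions, and 7 met those of the reverse class. At the border of the overlap condition, 6 members shared 10 bp or fewer with the WT GSK343 list and 92 shared 100 bp or fewer. A single member had a mutant GSK343 peak within 100 bp, at a gap of 32 bp.

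In WT DMSO the members were of intermediate strength and width. Their fold, the authors' ratio of ChIP over background for each peak, had a median of 2.64 (quartiles 2.51 and 2.80), against 2.46 for shared peaks overlapped in neither GSK343 list and 3.44 for those kept in both. Their median width was 2256 bp (quartiles 1292 and 3794 bp), against 873 bp and 4883 bp. The mutant-only peaks had almost the same WT DMSO values as the members, with a median fold of 2.68 and a median width of 2229 bp. Both 1-genotype classes lay between the peaks lost in both and the peaks kept in both. These values come from the contrast that chose the members and are given without a test.

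**Figure D1:**
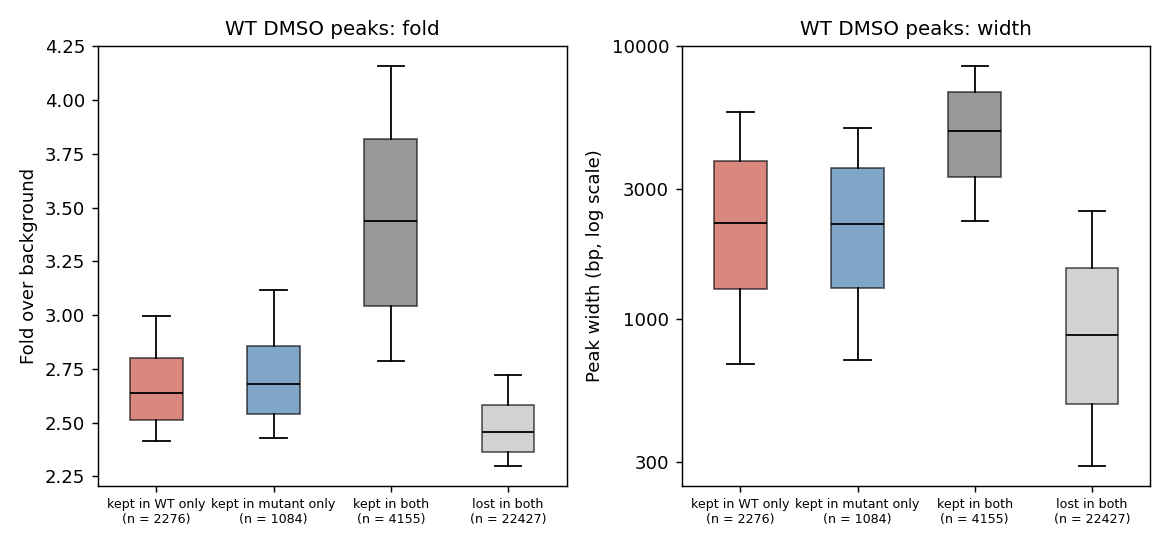
WT DMSO fold over background (left) and peak width in bp on a log axis (right) of shared peaks by class. Boxes span the quartiles with the median as a line, and whiskers reach the 10th and 90th percentiles. The WT-only and mutant-only boxes sit at nearly the same height, with median folds of 2.64 and 2.68, between the peaks lost in both (2.46) and kept in both (3.44).

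Sorted by WT DMSO fold, the share of WT-only peaks rose and then fell. It was 3.68% of shared peaks with a fold of 2.25 to 2.5, 11.8% at 2.5 to 2.75, 16.9% at 2.75 to 3 and 10.4% at 3 to 3.5. It was 1.33% at 3.5 to 4 and 0.580% at 4 or more. Mutant-only peaks followed the same course at a lower level, with 8.72% at 2.75 to 3. Over the same bins, peaks kept in both went from 0.255% at a fold of 2.25 to 2.5 to 98.3% at 4 or more. From a fold of 3.5 upward the classes were of like size, with 17 WT-only and 18 mutant-only peaks at 3.5 to 4, and 4 and 6 at 4 or more. The excess of WT-only over mutant-only peaks lay in the bins under a fold of 3.5.

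**Figure D2:**
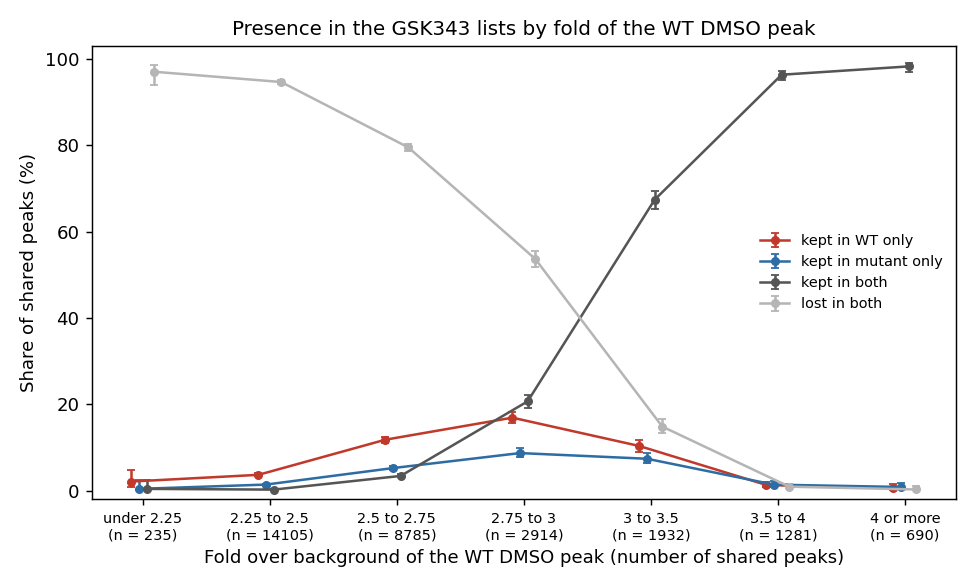
Share of shared peaks (percent, y axis) that fell in each class, by WT DMSO fold over background (x axis, number of shared peaks in parentheses). Points are shares and bars 95% Wilson intervals, which cover counting only. WT-only peaks reach their largest share, 16.9%, at a fold of 2.75 to 3, where mutant-only peaks stand at 8.72%.

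Mutant DMSO peaks covered most members wholly and a few only at an edge. A median of 100% of the bases of a member (lower quartile 92.0%, lowest 0.696%) lay in mutant DMSO peaks, and 2178 of 2276 members (95.7%, Wilson interval 94.8 to 96.5%) were covered by 50% or more. The mutant DMSO peak was the wider of the pair for 1985 members (87.2%), which is near the 86.2% of all shared peaks. Its median width was 5340 bp, and 577 members (25.4%) lay in a mutant DMSO peak of 10000 bp or more. The members overlapped 2251 mutant DMSO peaks, of which 113 held 2 or more members, with at most 4 in any peak. Neighbouring members are thus not independent. Of these 2251 peaks, 365 (16.2%, interval 14.8 to 17.8%) were overlapped by a mutant GSK343 peak elsewhere along their length. For 403 members (17.7%) the surrounding mutant domain thus kept a peak under GSK343, at another position. The other members lay in mutant DMSO peaks with no mutant GSK343 peak over them.

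The WT GSK343 peaks over the members were weak and narrow for their list. They numbered 2397, or 20.2% of the autosomal WT GSK343 peaks. For each member the WT GSK343 peak with the highest value had a median fold of 2.80 and a median −log10 q-value of 1.49, where 1 stands for a q-value of 0.1 and 2 for 0.01. All autosomal WT GSK343 peaks had medians of 2.96 and 1.89. A q-value of 0.01 or less was reached at 348 members (15.3%, interval 13.9 to 16.8%), against 44.8% of all autosomal WT GSK343 peaks and 66.9% of the peaks kept in both. The median width of the WT GSK343 peak was 612 bp, and a median of 24.2% of the member's bases was covered. A single WT GSK343 peak overlapped 2149 members (94.4%). In 1519 members (66.7%) a WT GSK343 peak lay wholly within the DMSO peak. These are extents of called peaks, and signal under the calling threshold was not measured.

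The mutant GSK343 peaks over the reverse class had the same character. Their median fold was 2.72, their median −log10 q-value 1.44 and their median width 442 bp, and 181 of 1084 (16.7%) reached a q-value of 0.01. A median of 19.3% of the bases of a mutant-only peak was covered. The lowest −log10 q-value in the lists was 1.07 in both, so the peaks that separate the classes lay in the lower part of their lists in both genotypes.

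In most members no mutant GSK343 peak lay close by. The median gap from a member to the nearest mutant GSK343 peak was 26293 bp (quartiles 7069.8 and 98320.5 bp). A mutant GSK343 peak lay within 1 kb of 43 members (1.89%, interval 1.41 to 2.54%), within 10 kb of 703 (30.9%) and within 50 kb of 1414 (62.1%). Peaks overlapped in neither GSK343 list had a mutant GSK343 peak within 10 kb in 27.8% (27.2 to 28.4%) of cases and within 50 kb in 61.7%. For mutant-only peaks the nearest WT GSK343 peak lay within 1 kb in 3.23% and within 10 kb in 39.3% (36.4 to 42.2%). For peaks overlapped in neither GSK343 list these shares were 2.61% and 37.0% (36.3 to 37.6%). When only members with a WT GSK343 q-value of at most 0.01 and no mutant GSK343 peak within 10 kb were counted, 237 of 2276 were left (10.4%, interval 9.22 to 11.7%). The same conditions left 126 of 1084 mutant-only peaks (11.6%, interval 9.85 to 13.7%).

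**Figure D3:**
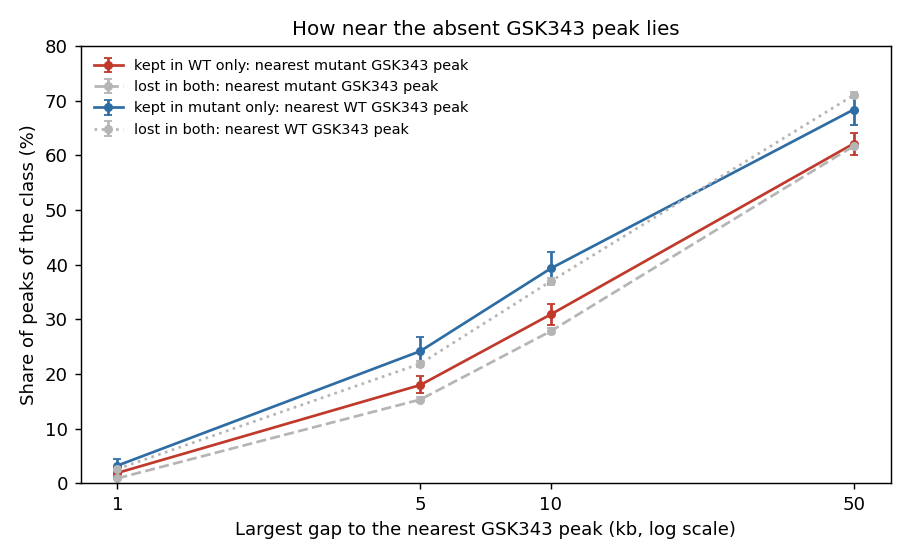
Share of peaks of a class (percent, y axis) with a GSK343 peak of the list that does not overlap them within 1, 5, 10 or 50 kb (x axis, log scale). Bars are 95% Wilson intervals. Within 10 kb of a mutant GSK343 peak the shares are 30.9% for WT-only peaks against 27.8% for peaks lost in both. Within 10 kb of a WT GSK343 peak they are 39.3% for mutant-only peaks against 37.0% for peaks lost in both.

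Position relative to genes was not used to choose the members. Of 2214 members on chromosomes with start sites in the table, which leaves out chromosome 18, 309 lay within 1 kb of the start site of a protein-coding gene. This is 13.96% (interval 12.6 to 15.5%), against 9.68% of all eligible peaks and 11.6% of shared peaks. The share was 13.9% (147 of 1054, 11.99 to 16.2%) for mutant-only peaks, 49.0% (47.5 to 50.6%) for peaks kept in both and 4.32% (4.05 to 4.59%) for peaks lost in both. The intervals of the WT-only and mutant-only shares overlapped widely. The share depended on the threshold: with a q-value of at most 0.01 in both GSK343 lists, 38.5% of the peaks then classed as WT-only had such a start site. Most of those peaks overlapped a weaker peak of the full mutant GSK343 list. Among the 337 members left when that q-value was asked of the WT GSK343 peak alone, 85 (25.2%) had one.

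The difference between peaks kept in both and peaks lost in both was smaller among peaks of more similar strength and width. Among shared peaks with a WT DMSO fold of 2.5 to 3 and a width of 1 to 4 kb, a start site lay near 120 of 876 WT-only peaks (13.7%, 11.6 to 16.1%), 49 of 437 mutant-only peaks (11.2%, 8.59 to 14.5%), 108 of 401 peaks kept in both (26.9%, 22.8 to 31.5%) and 268 of 4087 peaks lost in both (6.56%, 5.84 to 7.36%). The WT-only and mutant-only shares again lay between those of peaks lost in both and kept in both, and their own intervals overlapped. Strength was not made equal in this band. Median folds were 2.61 for peaks lost in both, 2.68 for WT-only, 2.70 for mutant-only and 2.81 for peaks kept in both. Their median widths were 1787, 2294, 2344 and 2771 bp in that order. At the members with a start site, the WT GSK343 peak itself lay within 1 kb of a start site in 254 of 309 (82.2%, 77.5 to 86.1%). Gene bodies of protein-coding genes were overlapped by 1037 members (45.6%, 43.5 to 47.6%), near the 44.4% of shared peaks. A further 255 members (11.2%) lay over a long non-coding RNA gene alone, and 984 (43.2%) lay over neither kind. Start sites of long non-coding RNA genes were within 1 kb of 127 members (5.74%, 4.84 to 6.78%), against 4.38% of shared peaks and 3.86% of eligible peaks.

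The promoter windows near WT-only peaks had a median CG content equal to that of windows near any WT DMSO peak, which include them. Over 368 windows the median was 16 CG dinucleotides per 300 bases (quartiles 7 and 26.2), the median GC content 60.2% and the median ratio of observed to expected CG 0.621. The 160 windows near mutant-only peaks had a median of 14, the 2380 near peaks kept in both a median of 19 and the 1028 near peaks lost in both a median of 7. The 4990 windows within 1 kb of any WT DMSO peak had a median of 16, and 54.3% of them held 15 or more. All 20085 protein-coding windows of these chromosomes had a median of 14. Windows with 15 or more CG made up 52.7% near WT-only peaks, 47.5% near mutant-only peaks, 63.8% near peaks kept in both and 30.2% near peaks lost in both. Several windows can belong to 1 gene and 1 peak, so these medians are descriptions without a test.

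**Figure D4:**
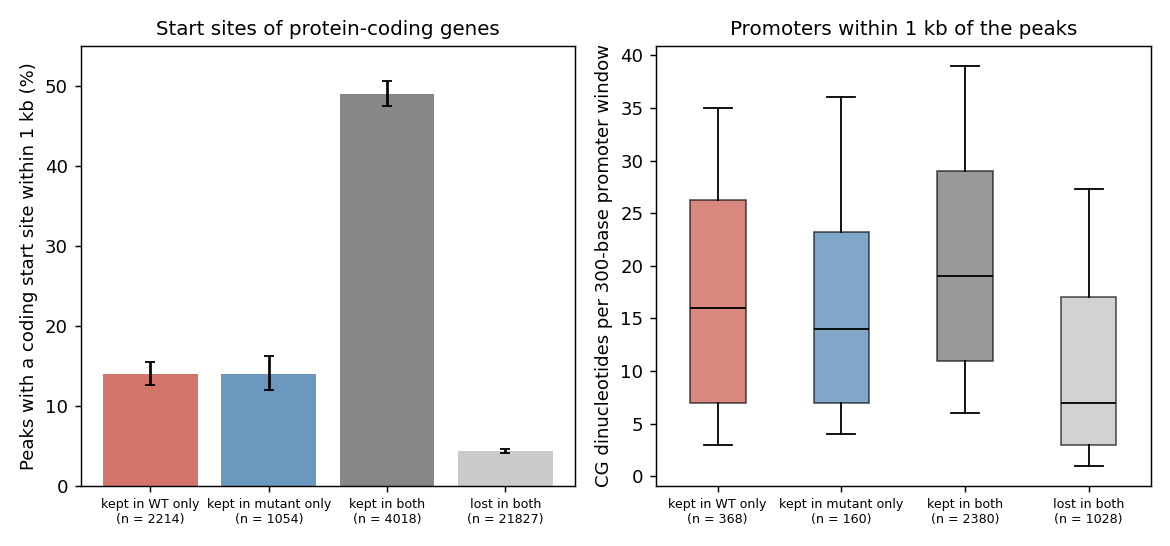
Left, share of peaks (percent) with a protein-coding start site within 1 kb, by class, with 95% Wilson intervals. Right, number of CG dinucleotides per 300-base promoter window within 1 kb of the peaks, with boxes for the quartiles and whiskers to the 10th and 90th percentiles. WT-only and mutant-only peaks stand at 13.96% and 13.95%, between 4.32% and 49.0%.

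By gene, 320 of 16457 protein-coding genes with a start site in the table lay within 1 kb of a WT-only peak (1.94%), and 150 lay that near to a mutant-only peak (0.911%). Peaks kept in both were that near to 12.2% of these genes and peaks lost in both to 5.62%. A single gene was near both kinds. Of the 320 genes, 16 also had a peak kept in both within 1 kb of a start site, and 15 had a mutant GSK343 peak that near. The lists of genes below were chosen with earlier results of these data known, and their counts are set against the 1.94%. That baseline takes no account of how many genes of a list carried the mark at all. A WT DMSO peak lay within 1 kb of a start site for 25.4% of all genes. The share was 79.4% for axon guidance, 68.2% for ion channels and neurotransmitter receptors, 65.5% for cell adhesion and matrix and 39.7% for solute carriers. It was 64.9% for forkhead, Sox, T-box and Gata factors, 73.2% for bHLH factors and 83.8% for Wnt, FGF, TGF-beta, Hedgehog and Notch genes. For cytokine, interferon and receptor genes it was 40.9%, and for interferon-stimulated and sensor genes 11.7%. A list share above 1.94% is thus not by itself a trait of the WT-only class.

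The lists of transcription factors gave few genes near a WT-only peak. Their counts do not set the lists apart, because the lists differed in how many genes carried the mark. None of 108 homeobox and paired-box genes had a WT-only or a mutant-only peak at a start site, while 97 of the 108 had a peak there in WT GSK343 and 97 in mutant GSK343. Although 99 had a WT DMSO peak, only 7 had a peak kept in both and 0 a peak lost in both. Few genes of this list thus had a shared peak under 10000 bp, so their absence from the WT-only class says little about retention. In the list of forkhead, Sox, T-box and Gata factors, which also holds Klf and related factors, 4 of 77 genes (5.19%) had a WT-only peak: Klf4, Klf9, Tbx10 and Foxp1. One gene, Tfap2d, had a mutant-only peak. Klf4, a zinc finger factor that restrains proliferation of B cells, had a WT DMSO peak of 2561 bp at chr4:55529598-55532158 with a fold of 3.31 and a WT GSK343 peak of 1697 bp with a fold of 3.30. The mutant DMSO peak there was only 334 bp wide and covered 13.0% of the WT peak, and the nearest mutant GSK343 peak was 579 kb away. At Klf4 the peak called in the mutant was thus narrower already without the inhibitor. Foxp1, a forkhead factor needed in B cell development, had a WT DMSO peak of 2216 bp at chr6:99519625-99521840 (fold 2.87) over a start site, a mutant DMSO peak of 2964 bp and a WT GSK343 peak of 301 bp (fold 2.78).

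Of 41 bHLH genes, 2 (4.88%) had a WT-only peak and none a mutant-only peak. Id2, an inhibitor of E proteins, had a WT DMSO peak of 2889 bp (chr12:25092857-25095745, fold 2.90), a mutant DMSO peak of 3185 bp and a WT GSK343 peak of 371 bp. A mutant GSK343 peak lay 1.49 kb from it. Bhlhe41, a repressor known from B-1 cells, had a WT DMSO peak of 3668 bp (chr6:145862676-145866343, fold 2.58), a mutant DMSO peak of 5313 bp and a WT GSK343 peak of 367 bp, and the nearest mutant GSK343 peak was 115 kb away. The peaks at Foxp1, Id2 and Bhlhe41, with WT GSK343 −log10 q-values of 1.47, 1.38 and 1.32, left the class at a q-value of at most 0.01 in both GSK343 lists, whereas that at Klf4 stayed. The ETS factor gene Etv1 was named by its distance from the mutant list. Its WT DMSO peak of 5897 bp at chr12:38777785-38783681 was matched by a mutant DMSO peak of 6418 bp. The WT GSK343 peak of 249 bp had a −log10 q-value of 2.74 and lay 1143 bp from the start site shown above, and the nearest mutant GSK343 peak was 1350 kb away.

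In the axon guidance list, 4 of 63 genes had a WT-only peak (6.35%) and 0 a mutant-only peak, while 36 had a peak kept in both. The 4 were Epha1, Epha2, Plxnb2 and Slitrk3. Epha2, an ephrin receptor, had a WT DMSO peak of 2697 bp at chr4:141301331-141304027 (fold 3.53), a mutant DMSO peak of 2950 bp (fold 3.38) and a WT GSK343 peak of 1391 bp (fold 3.13, −log10 q-value 2.34). Its neighbour in family, Epha1, had a WT DMSO peak of 1294 bp at chr6:42372091-42373384 (fold 3.40) inside a mutant DMSO peak of 7796 bp, and a WT GSK343 peak of 798 bp (fold 3.07). Plxnb2, a receptor for semaphorins, had a WT DMSO peak of 3190 bp at chr15:89178700-89181889 (fold 2.94) and a WT GSK343 peak of 2441 bp (fold 3.11) that spanned the CG-rich start site shown above. The nearest mutant GSK343 peak was 8.79 kb from the Epha2 peak, 46.8 kb from the Epha1 peak and 37.3 kb from the Plxnb2 peak. These 3 stayed in the class under each of 9 other settings of the peak lists and the overlap, as did 1 other of the 51 named members.

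Among 192 genes of ion channels and neurotransmitter receptors, 9 had a WT-only peak (4.69%) and 7 a mutant-only peak (3.65%). Drd2, a dopamine receptor gene, had a WT DMSO peak of 1829 bp at chr9:49339698-49341526 (fold 3.31), a mutant DMSO peak of 2043 bp (fold 3.09) and a WT GSK343 peak of 438 bp over its start site (fold 3.42, −log10 q-value 3.02). The nearest mutant GSK343 peak was 376 kb away. Cacng2, a subunit that guides glutamate receptors, had a WT DMSO peak of 6204 bp (chr15:78117789-78123992, fold 3.24) and a WT GSK343 peak of 2082 bp. Kcnmb4, a subunit of calcium-activated potassium channels, had peaks of 2833 bp in WT DMSO (chr10:116471793-116474625, fold 2.99), 4090 bp in mutant DMSO and 1260 bp in WT GSK343. A peak of 3384 bp near the start sites of Hcrt and Kcnh4 (chr11:100760399-100763782, fold 3.13) had a WT GSK343 peak of 1468 bp, while the mutant DMSO peak was 856 bp wide and covered 25.3% of it. The mutant-only peaks of this list were at the channel genes Kcna5 and Kcnn1, at the GABA receptor genes Gabra4, Gabrb1 and Gabra2, at the glutamate receptor gene Grm3 and at the serotonin receptor gene Htr1a. Genes of this kind thus stood on both sides at the deposited threshold. At a q-value of at most 0.01 in both GSK343 lists, the named peaks at Drd2, Kcnh4, Kcnmb4 and Cacng2 stayed in the WT-only class, while those at Kcna5, Kcnn1, Gabra4 and Grm3 left the mutant-only class. Only these named peaks were followed. Genes of the list that entered either class at that threshold were not counted, so the balance of the list there is unknown.

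WT-only peaks lay at 8 of 247 solute carrier genes (3.24%) and mutant-only peaks at 5 (2.02%), and at 5 and 3 of 113 genes of cell adhesion and matrix (4.42% and 2.65%). The WT-only genes of the latter were Cntn5, Col18a1, Col6a6, Col7a1 and Lamb2. Col18a1, which encodes a basement membrane collagen, had a WT DMSO peak of 4934 bp (chr10:77163487-77168420, fold 3.18), a mutant DMSO peak of 5771 bp and a WT GSK343 peak of 923 bp with a −log10 q-value of 1.76. Lamb2, a laminin chain, had a WT DMSO peak of 2730 bp (chr9:108477308-108480037, fold 3.08) and a WT GSK343 peak of 969 bp with a −log10 q-value of 1.79. Neither stayed in the class at a q-value of at most 0.01 in both GSK343 lists. In the list of Wnt, FGF, TGF-beta, Hedgehog and Notch genes, 2 of 80 had a WT-only peak, Inhba and Fgf22, and 2 a mutant-only peak, Gdf10 and Dkk2. Gdf10, a ligand of the BMP family, had a WT DMSO fold of 4.31 (chr14:33923172-33925323), a mutant DMSO fold of 3.70 and a mutant GSK343 peak of 889 bp (fold 3.20) over its CG-rich start site, and the nearest WT GSK343 peak was 275 kb away.

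The lists of blood lineages are short and gave at most 1 gene each. Of 18 B cell genes, 0 had a WT-only or mutant-only peak. Of 12 plasma cell and germinal centre genes the list gave 1 (8.33%), Sdc1, which encodes the plasma cell surface proteoglycan CD138. Its WT DMSO peak of 2556 bp (chr12:8770984-8773539, fold 2.86) was matched by a mutant DMSO peak of 2348 bp (fold 2.92) and a WT GSK343 peak of 1195 bp (fold 2.82, −log10 q-value 1.54), and the nearest mutant GSK343 peak was 174 kb away. Of 20 T and innate lymphoid genes there was 1, Cd3e, a chain of the T cell receptor complex. Its WT DMSO peak of 6555 bp (chr9:45005676-45012230, fold 2.66) lay in a mutant DMSO peak of 18350 bp, and the WT GSK343 peaks covered 10.3% of it. A mutant GSK343 peak lay 4.91 kb from the Cd3e peak. Of 23 myeloid, erythroid and stem cell genes there was also 1, Mpo, the myeloperoxidase of granulocytes (chr11:87793083-87795307, fold 2.63, WT GSK343 peak of 1115 bp). Tlr5, the receptor for bacterial flagellin, was the single member among 60 interferon-stimulated and sensor genes (chr1:182954645-182956147, fold 2.83). Pcgf5, a subunit of Polycomb repressive complex 1, was the single one among 25 Polycomb genes (chr19:36347982-36349194, fold 2.30). At Sdc1, Cd3e, Mpo, Tlr5 and Pcgf5 the WT GSK343 peaks had −log10 q-values from 1.35 at Mpo to 1.85 at Cd3e, and none of them stayed in the class at a q-value of at most 0.01 in both GSK343 lists.

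Among 137 cytokine, interferon and receptor genes, 6 had a WT-only peak (4.38%): Ccl27a, Il17rc, Tnfrsf9 and the interferon alpha genes Ifna1, Ifna2 and Ifna5. A mutant-only peak was found at 3, Cxcl9, Il20 and Ifna11. Type I interferons are the antiviral cytokines that the sensors mutated here induce when they meet foreign nucleic acids, and in the mouse most of their genes lie side by side on chromosome 4. The cluster was examined as a whole after these values were seen, from chr4:88522025-88880201, which spans 358 kb and 17 genes named as type I interferons. Many genes of the cluster are near-identical copies, and how reads that fit several copies were placed is not given in the sources used here, so the position of single peaks within it is uncertain.

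Over the interferon cluster, peaks covered 24.0% of the bases in WT DMSO and 35.2% in mutant DMSO, from 46 peaks in each list. Under GSK343 they covered 5.97% in WT (19 peaks) and 1.97% in mutant cells (11 peaks). Peaks overlapped 14 of the 17 interferon genes in WT DMSO, 13 in mutant DMSO, 5 in WT GSK343 and 1 in mutant GSK343. The 17 leave out protein-coding genes of the cluster with Gm symbols. Most peaks kept in both, each with a mutant GSK343 peak, lay over such genes, for example Gm13275 and Gm13285. Some WT-only peaks did as well, for example at Gm13289 and Gm13287. No WT DMSO peak there reached 10000 bp, and of 46 eligible peaks 10 were WT-only, 2 mutant-only, 8 kept in both, 20 lost in both and 6 absent from mutant DMSO. The WT-only peaks were thus 10 of 40 shared peaks, against the 7.6% of all shared peaks, a contrast chosen after it was seen and not tested. Their WT DMSO folds ran from 2.56 at chr4:88728568-88728952 to 3.08 at chr4:88776997-88778473, and their gaps to the nearest mutant GSK343 peak from 825 to 32238 bp. Ifna1 had a WT DMSO peak of 3957 bp (chr4:88850021-88853977, fold 2.78), a mutant DMSO peak of 4977 bp and a WT GSK343 peak of 1737 bp (fold 2.79). Ifna5 had a WT DMSO peak of 3071 bp (chr4:88834624-88837694, fold 2.62), a mutant DMSO peak of 4230 bp and a WT GSK343 peak of 1420 bp (fold 2.90). Ifna11, on the mutant-only side, had a WT DMSO peak of 3779 bp (chr4:88818228-88822006, fold 2.66) and a mutant GSK343 peak of 279 bp with a fold of 3.26. At Ifna1, Ifna2 and Ifna5 the −log10 q-value of the WT GSK343 peak was 1.503, 1.32 and 1.73, so these 3 calls were lost at a q-value of at most 0.01. The mutant GSK343 peak at Ifna11 had a value of 2.84.

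**Figure D5:**
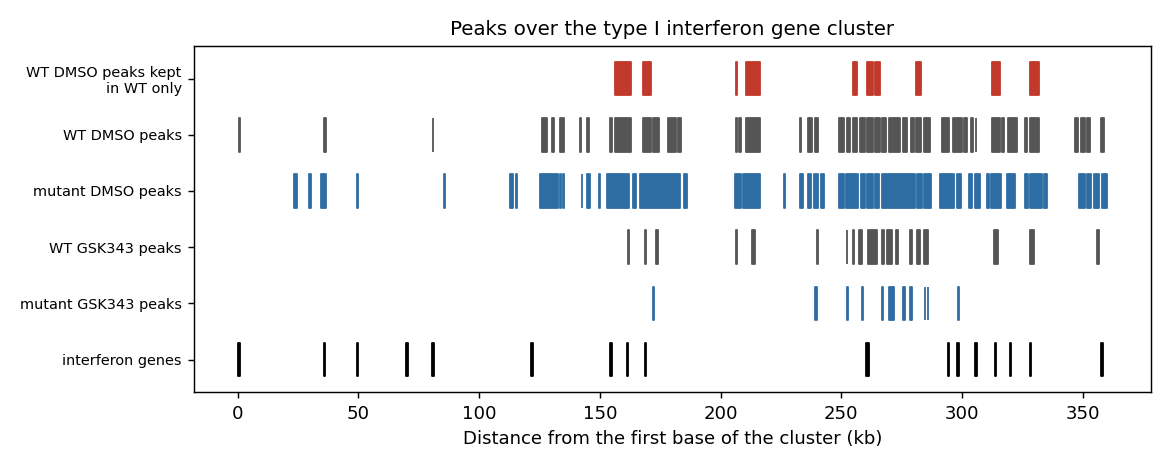
Peaks of the 4 lists, WT-only peaks and interferon genes along the type I interferon cluster of chromosome 4 (x axis, kb from its first base). Each bar is a peak or gene drawn to scale. The 19 WT GSK343 peaks and 11 mutant GSK343 peaks are thinly spread, and the 10 WT-only peaks lie in the middle and right parts of the cluster.

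The members with the strongest WT GSK343 peaks lay both at start sites and away from them. The highest fold, 5.47, was at a narrow peak of 349 bp outside protein-coding genes at chr17:22877607-22877955, where the folds were 7.45 in WT DMSO and 5.26 in mutant DMSO and the nearest mutant GSK343 peak was 458 kb away. Next came a peak of 4387 bp in Plcd3, a phospholipase C gene (chr11:103078014-103082400), with a WT GSK343 fold of 4.05 and a mutant DMSO peak that covered only 10.6% of it, and a peak of 949 bp in Nxnl1, a gene of photoreceptors (chr8:71562478-71563426), with a fold of 3.96. A peak of 1311 bp at chr13:36577808-36579118 had a WT GSK343 fold of 3.91, although a mutant DMSO peak of 8122 bp spanned it. Of the 8 members of highest WT GSK343 fold, 2 lay within 1 kb of a start site, against 13.96% of all members: those at Them7 (chr2:105223025-105226291, fold 3.79) and Fbxo10 (chr4:45082862-45084534, fold 3.74). The others were in Fam217a (3.69) and Zfp607b (3.69). In the reverse class the highest mutant GSK343 fold was 3.97, at chr8:48157497-48160724 outside protein-coding genes. The reverse class also held a peak in Axl, a receptor tyrosine kinase gene, at chr7:25780467-25783204 with a WT DMSO fold of 4.54, and a peak in Plau, which encodes urokinase, at chr14:20836748-20837278 with a fold of 2.91. Their mutant GSK343 folds were 3.54 and 3.55.

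Among members whose WT GSK343 peak had a q-value of at most 0.01, the farthest from any mutant GSK343 peak was at chr3:75796416-75797482, outside protein-coding genes, with a gap of 3169 kb. It was followed by chr12:65178079-65178284 with a gap of 2043 kb, where the mutant DMSO peak covered 2.43% of the member, and then by Etv1. Gabarapl1, an autophagy gene (chr6:129533731-129535587, WT GSK343 fold 3.20), Lin7a, a scaffold gene of synapses (chr10:107271504-107273005, 3.23), and Ptgs2, which encodes the inducible cyclooxygenase (chr1:150098969-150100309, 3.27), had gaps of 1231, 1058 and 893 kb. The mutant DMSO fold at these 3 was 2.46, 3.96 and 2.97. In the same order, WT GSK343 peaks covered 3.55%, 24.4% and 16.6% of the member and mutant DMSO peaks 26.4%, 100% and 54.3%.

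Members were spread over all 19 chromosomes. Their share of the shared peaks ran from 6.49% on chromosome 9 (interval 5.48 to 7.67%) to 9.49% on chromosome 17 (8.00 to 11.2%), around the 7.6% of all. WT-only peaks outnumbered mutant-only peaks on each chromosome, with a ratio from 1.51 on chromosome 8 to 3.07 on chromosome 12. In windows of 1 Mb, 987 of the 1960 with a shared peak held a WT-only peak, 681 held a mutant-only peak and 471 held both. The window with the most members was chr1:132000001-133000000, with 13 among 76 shared peaks. Of these members, 7 lay over Nfasc, a neuronal adhesion gene, and 3 over Lrrn2. The window chr2:70000001-71000000 held 12 members among 85 shared peaks, with 6 members over the myosin gene Myo3b and 2 over Gad1, which encodes an enzyme of GABA synthesis. The nearest other member lay within 10 kb for 424 members (18.6%). The nearest peak of the same class lay that near for 6.92% of mutant-only peaks, 14.6% of peaks kept in both and 73.9% of peaks lost in both. These classes differ in size, which was not allowed for. Members also overlapped 6 of 919 miRNA hairpins, those of Mir129-1, Mir202, Mir341, Mir1188, Mir6240 and Mir7686, and mutant-only peaks overlapped 2, Mir499 and Mir6337. Peaks kept in both overlapped 36 of the hairpins and peaks lost in both 16, so each class overlapped some. The 4 classes held 2276, 1084, 4155 and 22427 peaks in that order, and the hairpin counts were not adjusted for class size.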

How the data were processed

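H3K27me3 ChIP-seq of MACS-purified splenic B cells was read from 4 broad peak lists, 1 per genotype and treatment. The score, the fold over background (a linear ratio), and the −log10 p-value and q-value of each peak are as deposited by the authors; the score repeats the q-value and was not used further. Peak names point to pooled duplicates, and blacklisted regions had been removed, per the file names. The submitters' processing notes name Bowtie2 2.4.2, SAMtools 1.12, MACS2 2.2.7.1, bedtools 2.29.2, deepTools 3.5.1 and the build mm10, without roles or settings. Inputs and single replicates were not analysed here.

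Overlap meant at least 1 bp, and positions count from 1. For each peak the highest value among overlapping peaks of another list was used. Start sites came from a RefSeq table of GRCm38.p6 with 20085 protein-coding entries on the autosomes used. Shares carry 95% Wilson intervals, which cover counting only. The rule for named regions took members with the highest WT GSK343 fold, those farthest from mutant GSK343 peaks, the widest, and up to 4 per gene list; the reverse class was treated alike. Members and lists were chosen with earlier results of these data known. Alternatives were stricter q-values, equal list lengths, 50% overlap, a 1 kb tolerance, a 5000 bp width limit, merging within 3 kb and a 2.5 kb window; 2 more were chosen after seeing the data. Python 3.11.15, numpy 2.4.6, pandas 2.3.3 and matplotlib 3.10.9 were used. The overlap code gave the same number as bedtools 2.31.1 in 12 of 12 comparisons and placed 3000 of 3000 simulated peaks in their class.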

Additional observations from a re-analysis of the deposited data

How the results depend on the processing

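The 10 alternatives (8 planned, 2 chosen after seeing the data) gave 46 values for 5 results: 22 stayed within 1.5 times the original (shares within their interval), 24 moved further and 0 reversed; except where fewer peaks were admitted by construction, the cause was not tested. Values follow in the order WT-only count, mutant-only count, start-site share, median gap. A q-value of at most 0.01 in both GSK343 lists gave 997, 691, 38.5% and 79371 bp. In all 4 lists it gave 908, 649, 40.7% and 81220 bp, with a WT-only to mutant-only ratio of 1.399. Asked only of the list that holds the peak, it gave 348, 181 and 25.2%. Both settings before that also class peaks with a weaker GSK343 peak of the other genotype, which made up most of the 997 and the 691. An overlap of 50% gave 1100, 538, 40.8% and 0 bp, and merging within 3 kb 1311, 662, 19.6% and 54567 bp. In the former setting a mutant GSK343 peak was allowed if it covered less than 50% of the WT DMSO peak. The median gap of 0 bp means that at least 50% of those 1100 peaks overlapped or touched a mutant GSK343 peak. The share was 11.96% when GSK343 peaks within 1 kb counted as overlapping and 18.2% with a 2.5 kb window. Starting from mutant DMSO peaks the counts were 1743 and 841, the share 18.3% and the gap 39882 bp. The ratio ran from 1.399 to 2.288 over the alternatives that change it. Of 51 named WT-only regions, 23 stayed in the class at a q-value of at most 0.01 in both GSK343 lists, 8 at 50% overlap and 38 after merging. No paired analysis was possible because a list pools the replicates of its group, which also bars leaving one replicate out. Read depth is unknown, so its part in list length was not tested.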
